A study of Mus musculus with 6 samples.

Results

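The 10 genes described here encode a ligand, the receptors, the kinases, the transcription factor and 2 response genes of the pathway from leukaemia inhibitory factor (LIF) to STAT3. They were chosen by symbol, *Lif*, *Lifr*, *Il6st*, *Osmr*, *Il6ra*, *Jak1*, *Jak2*, *Stat3*, *Socs3* and *Pim1*, and make up 10 of the 16279 genes listed in either of the bulk gene count tables of the study. The study followed gene expression from mouse embryonic stem cells (mESCs) to cardiac precursor cell cultures (CPCCs) and deposited bulk RNA-seq of 3 libraries of each. The mESCs were male F1 hybrids of C57BL/6 (C57BL/6J in the study's methods) and CAST/EiJ, from 3 clones of blastocyst origin, and were grown on gelatin without feeders in serum medium with LIF, the MEK inhibitor PD0325901 and the GSK3 inhibitor CHIR99021 (2i medium). The CPCCs were derived from those clones by hanging drops and embryoid bodies in medium with ascorbic acid and were then passaged in medium with EGF and Fgf2. The methods list no added LIF for these steps. CPCCs are mixed cultures, so a level in them is a mean over several cell types.

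LIF holds mESCs in the naive pluripotent state. It binds LIFR, which pairs with the shared signalling receptor gp130 (*Il6st*), and the JAK kinases bound to both then phosphorylate STAT3, which enters the nucleus and activates genes such as *Klf4* and *Tfcp2l1* and its own inhibitor *Socs3*. Related cytokines use the same gp130 with another partner, oncostatin M with OSMR and interleukin 6 with IL6RA, and are produced and sensed by fibroblasts, cardiac cells and blood cells.

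Values are given in CPM, counts scaled to 1000000 per library after TMM normalization (a scaling that makes libraries comparable). The mESC libraries are called S01 to S03 and the CPCC libraries S04 to S06, after their columns, and values are given in that order. A fold change is that of CPCCs over mESCs on the log2 scale, with its standard error (SE) and a p that was adjusted by Benjamini-Hochberg and comes from the quasi-likelihood test of edgeR, called where it is under 0.05. Both tables list 9 of the 10 genes, which were all tested. Of these, *Lif*, *Il6st*, *Jak1*, *Jak2* and *Stat3* were higher in CPCCs (5 genes, against 31.7% of the 12471 genes tested), *Lifr*, *Socs3* and *Pim1* were lower (3 genes, against 29.7%), and *Il6ra* did not pass the test. *Osmr* is listed for CPCCs alone. So 8 of 9 were called, where 61.4% of all genes tested were called, and the CPCC and mESC libraries did not overlap for these 8 genes, as for 69.7% of all genes tested. The median fold change of the 9 genes was 0.72, beside 0.031 over all genes tested. With this share of called genes in the whole table, a single call says little about the pathway in particular, and the sizes and the order of the levels are described below.

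**Figure D1:**
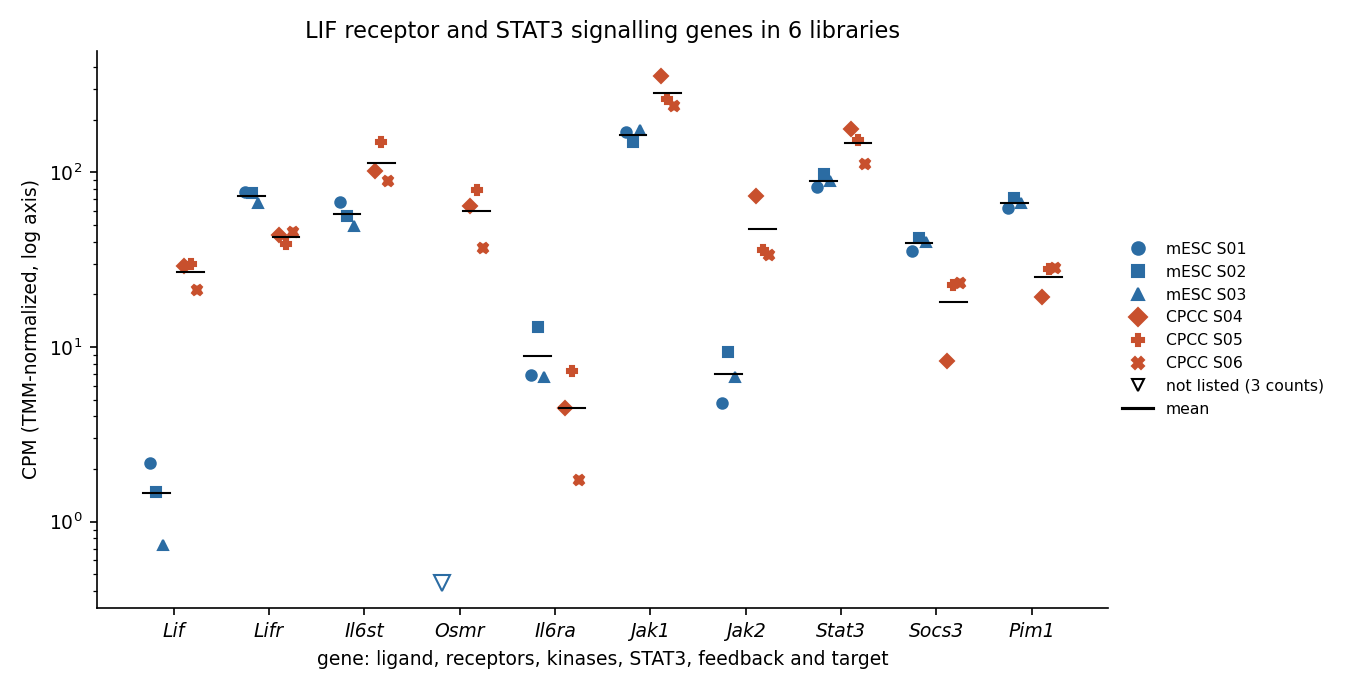
CPM on a log axis for the 10 genes in each of the 6 libraries, with mESC libraries in blue, CPCC libraries in red and a line at the mean of each group. Of the 9 genes in both tables, *Lif* and *Jak2* show the widest gaps between the groups, *Il6ra* is the gene whose groups overlap, and the open triangle marks 3 counts for *Osmr*, which the mESC table does not list.

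The libraries held 6442639 to 6907330 counts in mESCs and 8468819 to 11436062 in CPCCs. At this depth 3 counts, used as the floor for a gene missing from a table, equal 0.298 to 0.463 CPM. Markers of pluripotent cells fell in 8 of 8 genes, with a summed level of 4553 to 4885 CPM in mESCs, against of 94.7, 290 and 411 CPM in S04, S05 and S06. The 10 cardiac progenitor markers summed to 6.33 to 12.7 CPM in mESCs, against to 494, 153 and 157 CPM in the CPCC libraries, while *Nkx2-5*, a defining marker, stood at 1.59, 0 and 0.917 CPM and *Gata4* and *Isl1* did not pass the test. The summed level of mesenchymal and fibroblast markers was by far the highest in CPCCs, at 7377, 9363 and 6092 CPM against 12.1 to 18.7 CPM in mESCs. It came mostly from the collagen genes *Col1a1*, *Col1a2* and *Col3a1*, with CPCC means of 3049, 2375 and 1670 CPM, while *Pdgfra* did not pass the test. Blood and macrophage markers summed to 271, 84.5 and 40.5 CPM in CPCCs, where 8 of 8 were listed, and to 10.97 to 15.3 CPM in mESCs, where 7 of 8 were not listed. Neural markers summed to 541 to 571 CPM in CPCCs, mostly from *Nes* and *Tubb3*, against 38.8 to 46.4 CPM in mESCs. Endoderm markers summed to 31.4 to 55.3 CPM against 1.70 to 7.17 CPM, with 3 of 6 listed for neither cell type. Endothelial markers summed to 14.8 to 29.3 CPM in CPCCs against 92.3 to 101 CPM in mESCs. The endothelial sum in mESCs came mostly from *Pecam1* (86.0 to 94.3 CPM, against 3.27 to 6.07 CPM in CPCCs), while *Cdh5*, *Kdr* and *Emcn* were listed for CPCCs alone, *Tek* did not pass the test and 1 marker was listed for neither. S04 thus stood apart among the CPCC libraries, with the lowest pluripotency sum and the highest cardiac and macrophage sums. The fold changes of *Lif*, *Lifr*, *Jak1*, *Jak2*, *Stat3*, *Socs3*, *Pim1* and *Cntf* are given with and without it. In these cultures a change in the share of a cell type and a change in RNA per cell cannot be told apart, and the part of each cell type in the results below was not tested. The p-values measure the spread between these libraries.

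*Lif* (chromosome 11, 4257568 to 4272515, plus strand, GRCm38), the ligand itself, had 2.16, 1.47 and 0.731 CPM in S01, S02 and S03, which is 14, 10 and 5 counts, and 29.0, 29.95 and 21.2 CPM in S04, S05 and S06. Every CPCC library was far above every mESC library, and the message of the ligand was near the floor in the cells whose medium supplies it. The mean rose from 1.46 ± 0.716 CPM (SD, n = 3) to 26.7 ± 4.81 CPM (SD, n = 3), an 18.4-fold ratio, with a fold change of 4.19 (SE 0.40, edgeR adjusted p = 3.3e-05). Without S04 it was 4.14 (edgeR adjusted p = 3.37e-06). Among the 12471 genes tested this fold change lay at the percentile 96.7.

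*Lifr* (chromosome 15, 7129572 to 7197490, plus strand), the receptor that binds LIF, had 76.9, 75.8 and 66.8 CPM in the mESC libraries and 44.0, 38.9 and 45.8 CPM in the CPCC libraries. The receptor thus moved against its ligand, and the groups did not overlap, although the CPCC mean kept 0.587 of the mESC mean. The mean went from 73.2 ± 5.52 CPM (SD, n = 3) to 42.9 ± 3.59 CPM (SD, n = 3), with a fold change of -0.77 (SE 0.17, edgeR adjusted p = 0.0036). It was -0.77 without S04 too.

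*Il6st* (chromosome 13, 112464070 to 112506861, plus strand), which encodes gp130, the signalling receptor shared by the cytokines of this family, had 68.0, 56.2 and 49.0 CPM in mESCs, against 102, 149 and 89.6 CPM in CPCCs. The lowest CPCC library, S06, was above the highest mESC library. Its fold change was 0.97 (SE 0.23, edgeR adjusted p = 0.00558), from 57.7 ± 9.58 CPM (SD, n = 3) to 113.4 ± 31.3 CPM (SD, n = 3).

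*Osmr* (chromosome 15, 6813577 to 6874314, minus strand), the partner of gp130 for oncostatin M, is not in the mESC table, whose genes all have at least 10 counts over the 3 libraries. In CPCCs it had 64.0, 79.4 and 36.9 CPM, or 644, 655 and 322 counts. Against the floor of 3 counts per mESC library, its mean of 60.1 ± 21.5 CPM (SD, n = 3) was at least 134-fold higher in CPCCs. Even the lowest CPCC library was 79.6 times the highest mESC floor. *Osmr* and *Il6st* had the same order over the 3 CPCC libraries as the mesenchymal, neural and endoderm marker sums, S05 above S04 above S06. The part of these cell types in the levels was not tested.

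*Il6ra* (chromosome 3, 89869324 to 89913197, minus strand), the receptor for interleukin 6, stayed low in both cell types, at 6.95, 13.1 and 6.73 CPM in mESCs, against 4.47, 7.28 and 1.72 CPM in CPCCs. The groups overlapped, since S05 was above S01 and S03. The fold change was -0.99 with an SE of 0.54 (edgeR adjusted p = 0.139), and at 15 to 89 counts per library a change of this size was not detectable against the spread. An antisense gene lies over *Il6ra* in the annotation, and the strand setting of the counting is not given in the sources used here, so reads of the pair cannot be told apart.

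*Lifr* and *Osmr* are neighbours on chromosome 15. Their gene bodies lie 255.3 kb apart with no other listed gene between them, and they encode receptors that share gp130. In mESCs only *Lifr* of the pair was listed. In CPCCs, *Osmr* made up 71.9%, 78.2% and 58.6% of the counts per kilobase of the pair in S04, S05 and S06 (mean 69.6% ± 10.01, SD, n = 3). With *Osmr* set to 3 counts per mESC library its share there would be 1.05%, 1.01% and 1.14%. These values rest on the count that was set, since a single library could hold more than 3 counts, and were given no test. Per kilobase, the majority receptor message of the pair was therefore *Lifr* in all 3 mESC libraries and *Osmr* in all 3 CPCC libraries. Without division by length, *Osmr* made up 59.25%, 67.1% and 44.6% in S04, S05 and S06, so *Lifr* was the majority in S06.

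The ligand genes *Osm* and *Lif* lie side by side on chromosome 11, with 16.5 kb and no listed gene between them, and they showed the opposite arrangement. *Osm* (4236785 to 4241027, plus strand), which encodes oncostatin M, had 11.1, 7.94 and 8.04 CPM in mESCs, against is not listed for CPCCs, so its mean of 9.04 ± 1.81 CPM (SD, n = 3) was at least 26.9-fold higher in mESCs. *Lif* made up 9.89%, 9.46% and 4.88% of the counts per kilobase of this pair in mESCs. With *Osm* at 3 counts, the share of *Lif* in CPCCs would be 98.2%, 97.9% and 97.2%, with the same limit. Per kilobase, the more abundant messages of the pairs in mESCs were thus *Lifr* and the ligand of the other receptor, *Osm*. In CPCCs they were *Osmr* and *Lif*, although without division by length *Lifr* was above *Osmr* in S06. Protein was not measured.

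**Figure D2:**
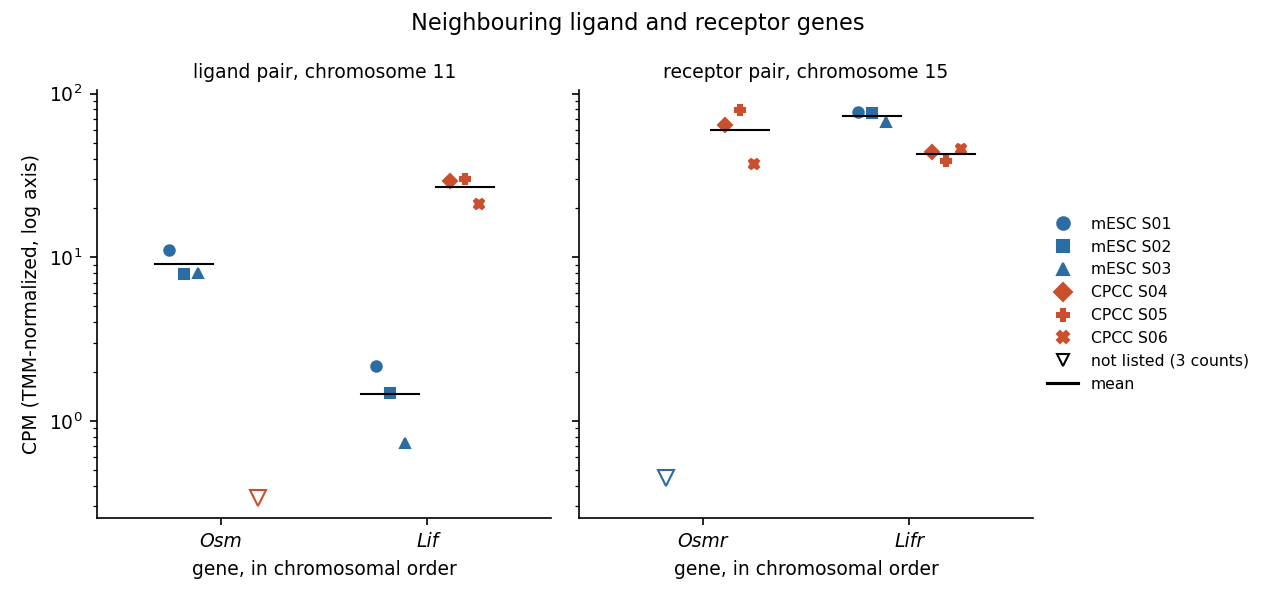
CPM on a log axis for the ligand pair *Osm* and *Lif* (left) and the receptor pair *Osmr* and *Lifr* (right) in each library, with mESCs in blue, CPCCs in red and a line at each mean. *Osm* is listed for mESCs alone and *Osmr* for CPCCs alone, with the open triangle at 3 counts in the other group, and *Lif* is 18.4-fold higher in CPCCs.

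*Jak1* (chromosome 4, 101151974 to 101265283, minus strand), the main kinase bound to gp130, had 169, 149 and 175 CPM in mESCs, against 356, 263 and 241 CPM in CPCCs. The groups did not overlap, and S04 was the highest. The mean rose from 164 ± 13.6 CPM (SD, n = 3) to 287 ± 61.2 CPM (SD, n = 3), with a fold change of 0.80 (SE 0.19, edgeR adjusted p = 0.00499). Without S04 it was 0.63 (edgeR adjusted p = 0.00194). Its locus also holds a pseudogene and a small nuclear RNA gene, and some of its deposited counts are not whole numbers, so part of its reads may have been shared among features.

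*Jak2* (chromosome 19, 29251803 to 29313081, plus strand), a second kinase used by gp130 and also by receptors of growth hormone and of blood cytokines, rose more. It had 4.79, 9.41 and 6.73 CPM in mESCs, against 72.9, 36.1 and 33.7 CPM in CPCCs. All CPCC libraries were above all mESC libraries, and S04 was about as high as the other two together. The ratio of the means was 6.82 (6.98 ± 2.32 CPM to 47.6 ± 21.9 CPM, SD, n = 3 each), with a fold change of 2.77 (SE 0.38, edgeR adjusted p = 0.000284). Without S04 it was 2.33 (edgeR adjusted p = 2.41e-05). *Jak1*, *Jak2* and *Stat3* had the order S04 above S05 above S06 in CPCCs, as did the marker sums of blood and macrophages and of endothelial cells. The part of those cells in the levels was not tested.

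The kinase pair shifted in its makeup. Per kilobase, *Jak2* made up 2.69%, 5.80% and 3.62% of *Jak1* and *Jak2* together in mESCs and 16.6%, 11.8% and 11.99% in CPCCs. Its share went from 4.04% ± 1.6 (SD, n = 3) to 13.5% ± 2.72 (SD, n = 3), a difference of 9.45 percentage points. The exact two-sided permutation test over libraries gave p = 0.1, which is the smallest p that 3 against 3 libraries allow, so this test cannot pass 0.05. *Jak1* remained the more abundant message in every library.

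*Stat3* (chromosome 11, 100886806 to 100939541, minus strand), the transcription factor at the end of the pathway, had 82.5, 97.5 and 89.4 CPM in mESCs, against 177, 154 and 112 CPM in CPCCs. The CPCC libraries were all above the mESC libraries, with S06 nearest to them. The fold change was 0.72 (SE 0.20, edgeR adjusted p = 0.012), from 89.8 ± 7.53 CPM (SD, n = 3) to 148 ± 33.0 CPM (SD, n = 3). Without S04 the fold change was 0.58 (edgeR adjusted p = 0.011). The call was lost without S01, where the fold change was 0.66 (edgeR adjusted p = 0.0588). The message level says nothing of the phosphorylated, active form of the protein.

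*Socs3* (chromosome 11, 117966087 to 117969367, minus strand) encodes the inhibitor that STAT3 induces and that binds gp130 and JAK to end the signal. Its promoter was the only one of the 12 promoters of the 10 genes with the letters TTCNNNGAA, the core that STAT proteins bind, which reads the same on both strands. The promoters are those of RefSeq on GRCm38.p6, from 250 bases before a start site to 50 after it, and all 10 genes were matched. Over all 32851 promoters 8.3% hold these letters, so 1 of 12 (8.33%) is the background share. A stretch upstream of the *Socs3* start, on the minus strand at chr11:117969452-117969616 and outside the exons of *Socs3* in GENCODE vM21, is shown because it holds this match, in capitals, with its first base at -154 from the start site:
Socs3 promoter: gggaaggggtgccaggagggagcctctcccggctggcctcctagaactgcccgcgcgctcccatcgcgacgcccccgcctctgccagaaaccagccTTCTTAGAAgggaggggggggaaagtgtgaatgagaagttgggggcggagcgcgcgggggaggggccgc
A match of letters is not a measured binding site.

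The level of *Socs3* was 35.7, 42.2 and 39.8 CPM in mESCs, against 8.35, 22.8 and 23.3 CPM in CPCCs. It was lower in every CPCC library, and S04 was lowest by a wide margin. The mean went from 39.2 ± 3.30 CPM (SD, n = 3) to 18.1 ± 8.48 CPM (SD, n = 3), with a fold change of -1.12 (SE 0.36, edgeR adjusted p = 0.0227). The size depended on S04, without which the fold change was -0.75 (edgeR adjusted p = 0.00658). The call was lost without S02 (-1.06, edgeR adjusted p = 0.0656) and without S03 (-1.11, edgeR adjusted p = 0.0618).

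*Pim1* (chromosome 17, 29491045 to 29495460, plus strand), a serine/threonine kinase that promotes survival and is a classical STAT3 target, had 62.9, 71.3 and 66.7 CPM in mESCs, against 19.4, 28.0 and 28.2 CPM in CPCCs. The groups were well apart, and S04 was again the lowest library. The mean went from 67.0 ± 4.24 CPM (SD, n = 3) to 25.2 ± 5.03 CPM (SD, n = 3), with a fold change of -1.41 (SE 0.21, edgeR adjusted p = 0.000375). Without S04 the fold change was -1.24 (edgeR adjusted p = 8.41e-05). *Socs3* and *Pim1* thus fell while *Stat3*, *Jak1* and *Il6st* rose. In CPCCs S04 was the lowest library for both, as for the pluripotency marker sum, while S05 and S06 lay close together. They had 22.8 and 23.3 CPM of *Socs3* and 28.0 and 28.2 CPM of *Pim1*. The part of pluripotent cells in these levels was not tested. An antisense gene also overlaps *Pim1*.

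The PIM family changed in composition. *Pim2*, a close relative of *Pim1*, rose from 1.10 ± 0.517 CPM to 8.64 ± 2.79 CPM (SD, n = 3 each), with a fold change of 2.96 (SE 0.52, edgeR adjusted p = 0.00106), and *Pim3* fell from 28.7 ± 4.71 CPM to 15.2 ± 1.16 CPM, with a fold change of -0.92 (SE 0.22, edgeR adjusted p = 0.00639). Per kilobase, *Pim1* made up 65.6%, 63.1% and 69.7% of the 3 kinases in mESCs and 34.7%, 46.0% and 39.0% in CPCCs. The mean share went from 66.1% ± 3.30 to 39.9% ± 5.70 (SD, n = 3 each), a difference of -26.2 percentage points (exact two-sided permutation test, p = 0.1, the smallest possible). *Pim2* rose in share by 30.2 percentage points, from 2.56% ± 1.01 to 32.8% ± 6.74 (exact two-sided permutation test, p = 0.1), while the shares of *Pim3*, 31.3% and 27.3%, overlapped between the groups. Without division by length the share of *Pim2* was 1.11% ± 0.444 and 17.5% ± 4.37 (SD, n = 3 each).

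**Figure D3:**
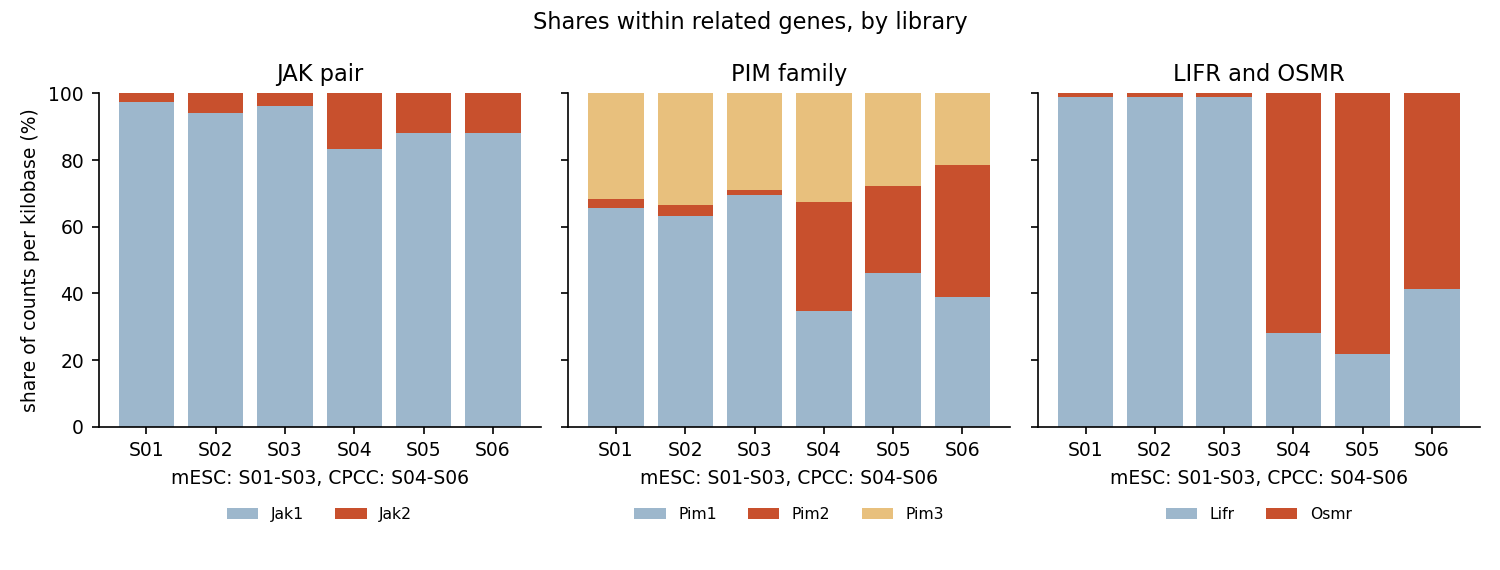
Stacked bars of the share (%) of counts per kilobase within *Jak1* and *Jak2*, within *Pim1*, *Pim2* and *Pim3*, and within *Lifr* and *Osmr*, for mESC libraries S01 to S03 and CPCC libraries S04 to S06. *Jak2* goes from 4.04% to 13.5% of its pair, *Pim1* from 66.1% to 39.9% of its family, and *Osmr*, set to 3 counts in mESCs, reaches a mean of 69.6% in CPCCs.

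Levels of different genes were compared per kilobase of the longest coding transcript. In mESCs the order was *Jak1* (33.5 CPM per kb), *Pim1* (24.8), *Socs3* (15.4), *Stat3* (14.9), *Lifr* (7.58), *Il6st* (6.65), *Jak2* (1.39), *Il6ra* (1.03) and *Lif* (0.361 CPM per kb). Neighbours whose library ranges overlapped were *Socs3* and *Stat3*, *Lifr* and *Il6st*, and *Jak2* and *Il6ra*. In CPCCs *Jak1* (58.4 CPM per kb) and *Stat3* (24.4) led without overlap. Then followed *Il6st* (13.1), *Osmr* (10.95), *Jak2* (9.46), *Pim1* (9.34), *Socs3* (7.11) and *Lif* (6.64 CPM per kb), each overlapping the next, and *Lifr* (4.45) and *Il6ra* (0.520 CPM per kb) came last. The LIF receptor message thus had a slightly higher mean than gp130 in mESCs, with library ranges that overlapped. In CPCCs it was below gp130, and no library of *Lifr* reached the lowest library of *Il6st*.

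**Figure D4:**
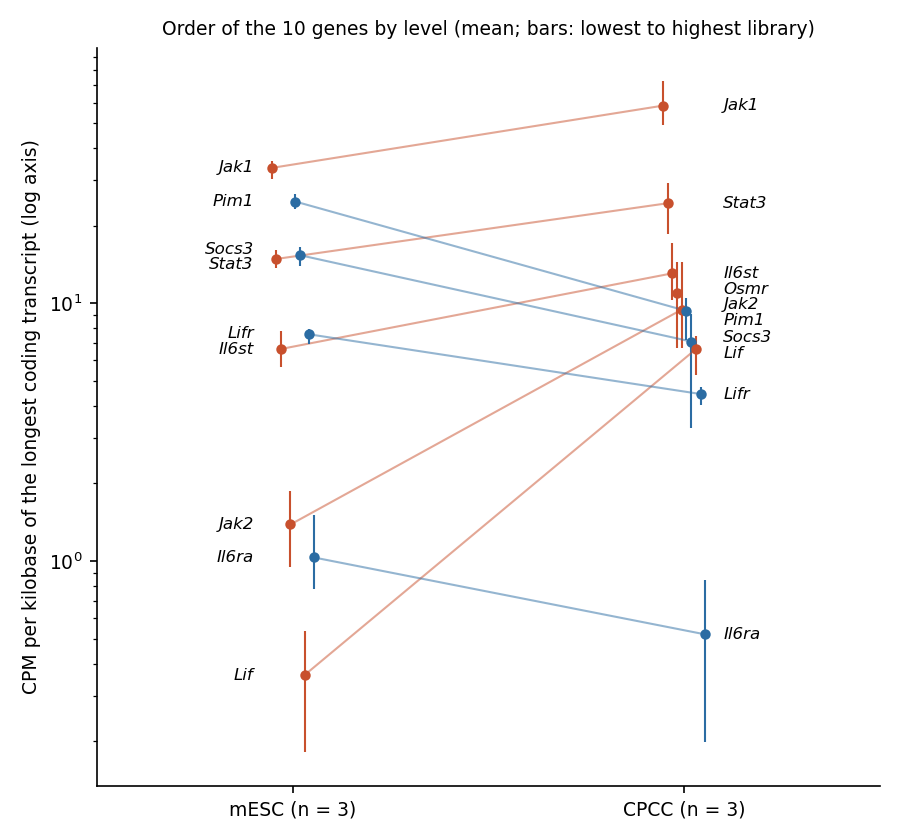
Mean CPM per kilobase of the 10 genes in mESCs and CPCCs on a log axis, with bars from the lowest to the highest of 3 libraries, red for genes with a higher and blue for genes with a lower mean in CPCCs. *Jak1* is highest in both cell types (33.5 and 58.4), *Pim1* and *Socs3* move down the order, and *Lif* and *Jak2* move up.

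The genes with the most similar profiles over the 6 libraries were found for 4 of the 10 genes, by the root mean square difference of log2 CPM after centring each gene. Nearest to *Lifr* were *Sco1* (0.043), *Rps19* (0.052) and *Pdhb* (0.056). For *Il6st* they were *Rxra* (0.085), *Arfgap1* (0.096) and *Adcy1* (0.096), and for *Stat3* they were *Mapk9* (0.058), *Rgs10* (0.069) and *Dgka* (0.078). *Socs3* lay nearest to *Cep78* (0.097), *Bola1* (0.102) and *Chst8* (0.107). None of the 12 belongs to the lists of pathway genes used here.

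The 58 other genes of the pathway were grouped by role. Of the 50 tested, 23 were higher and 14 lower in CPCCs and 13 did not pass the test, with a median fold change of 0.40, and 40 had groups without overlap. Over all genes tested, 31.7% were higher, 29.7% were lower and 69.7% had no overlap, so the number of lower pathway genes was near the background. A further 4 are listed for CPCCs alone, 1 for mESCs alone and 3 for neither.

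Ligands of the interleukin 6 family were higher in CPCCs in 3 of 3 genes tested, beside 31.7% of all genes tested. *Cntf*, ciliary neurotrophic factor, went from 7.53 ± 2.29 CPM to 18.5 ± 9.51 CPM (SD, n = 3 each), with a fold change of 1.30 (SE 0.41, edgeR adjusted p = 0.0223), and *Ctf1*, cardiotrophin 1, from 2.80 ± 0.835 CPM to 6.02 ± 0.755 CPM, with a fold change of 1.10 (SE 0.43, edgeR adjusted p = 0.0495). *Cntf* was highest in S04 (29.4 CPM, against 12.9 and 13.1 CPM in S05 and S06), and without S04 its fold change was 0.80 and the call was lost (edgeR adjusted p = 0.0666). It was lost too without S01 (1.36, edgeR adjusted p = 0.0546) and without S03 (1.07, edgeR adjusted p = 0.0811). The call on *Ctf1* held in 0 of the 6 fits that each left out 1 library, with fold changes of 0.89 to 1.31. *Il11*, interleukin 11, was listed for CPCCs alone with 37.3, 12.3 and 14.1 CPM, and was at least 47.4-fold higher there. *Clcf1* (2.71 ± 2.08 CPM, SD, n = 3) and *Il6* (1.54 ± 1.25 CPM, SD, n = 3), the latter named after its values were seen, were also listed for CPCCs alone, and in S06 *Il6* stood at 0.115 CPM, below the floor. *Osm* was the exception among the ligands, listed for mESCs alone.

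Among the other receptors, *Il11ra1*, the receptor for interleukin 11, had 1.39, 1.03 and 1.90 CPM in mESCs, against 18.3, 18.4 and 16.2 CPM in CPCCs, a fold change of 3.60 (SE 0.36, edgeR adjusted p = 4.24e-05). So the ligand and the receptor of interleukin 11 were both higher in CPCCs, together with gp130. *Cntfr*, the receptor for ciliary neurotrophic factor, was listed for CPCCs alone (4.75 ± 1.29 CPM, SD, n = 3, at least 10.6-fold higher), and *Il27ra* did not pass the test.

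Of the 8 other JAK and STAT genes, 1 was higher, 2 were lower and 5 did not pass the test, where 61.4% of all genes tested were called. *Stat5b* had a fold change of 1.71 (SE 0.41, edgeR adjusted p = 0.00559), from 4.29 ± 1.57 CPM to 14.03 ± 4.44 CPM (SD, n = 3 each). Its near-identical copy *Stat5a* had 2.89 ± 0.604 CPM and 1.70 ± 0.548 CPM (SD, n = 3 each; edgeR adjusted p = 0.237), and how the counting split reads between the 2 genes is uncertain. *Stat2*, a factor of the interferon response, fell from 22.7 ± 1.03 CPM to 11.2 ± 1.36 CPM (SD, n = 3 each; fold change -1.02, SE 0.23, edgeR adjusted p = 0.00431). *Stat4* was called lower at 1.47 to 5.72 CPM in mESCs, against 0.573 to 1.09 CPM in CPCCs (fold change -1.89, SE 0.71, edgeR adjusted p = 0.0431), a call that held in 2 of the 6 fits that each left out 1 library. Its size rested on S01 (5.72 CPM, against 1.47 and 1.90 CPM in S02 and S03), without which the fold change was -1.06 (edgeR adjusted p = 0.262). The call was also lost without S03 (-2.14), S05 (-1.82) or S06 (-1.70), with edgeR adjusted p = 0.0532, 0.113 and 0.11.

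Of the 14 negative regulators beside *Socs3*, 5 were higher, 4 were lower and 5 did not pass the test, with a median fold change of 0.34. Both counts are near the shares over all genes tested, 31.7% and 29.7%. Members of the SOCS family did not move one way, and *Socs1*, *Socs6* and *Socs7*, named after their values were seen, did not pass the test. *Socs5* rose from 7.11, 10.4 and 13.5 CPM to 102, 63.4 and 53.0 CPM, a fold change of 2.81 (SE 0.33, edgeR adjusted p = 0.000106). *Cish*, a family member best known as a target of STAT5, rose from 4.17, 4.56 and 2.05 CPM to 27.0, 16.5 and 15.4 CPM, a fold change of 2.45 (SE 0.40, edgeR adjusted p = 0.000702). *Socs2*, also a STAT5 target and named here after its values were seen, went the other way, from 169 ± 12.3 CPM to 65.9 ± 11.7 CPM (SD, n = 3 each; fold change -1.36, SE 0.18, edgeR adjusted p = 0.000249). *Ptpn6*, the phosphatase SHP-1 of blood cells, fell from 31.9 ± 7.11 CPM to 9.64 ± 2.06 CPM (SD, n = 3 each; fold change -1.73, SE 0.27, edgeR adjusted p = 0.000587), while blood and macrophage markers were higher in CPCCs.

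*Cish* also carried the letters TTCNNNGAA at its start, with 2 matches at positions 1 and 12 counted from the RefSeq start, 1 of them with the stricter letters TTCCNGGAA, which are contained in the wider motif. The stricter letters occur in 1.15% of all promoters, in 0 of the 12 promoters of the 10 genes and in 2 of the 57 promoters (3.51%) found for 40 of the 58 pathway genes. The wider letters occur in 4 of these 57 (7.02%), beside 8.3% of all promoters. The 30 bases at chr9:107296654-107296683 (plus strand, GRCm38.p6) span the RefSeq start and lie within annotated transcripts of *Cish* in GENCODE vM21. They are shown with both matches in capitals:
Cish start site: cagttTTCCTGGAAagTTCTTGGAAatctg

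Adaptors that carry the signal from the receptor to RAS and PI3K were higher in 5 of 8 genes, lower in 2 and not called in 1, beside 31.7% higher and 29.7% lower of all genes tested, with a median fold change of 1.21. *Gab2*, a docking protein, had 2.47, 2.35 and 0.731 CPM in mESCs, against 31.8, 45.4 and 23.8 CPM in CPCCs, a fold change of 4.18 (SE 0.45, edgeR adjusted p = 6.57e-05). Its relative *Gab1*, named after its values were seen, was the more abundant in mESCs and fell from 292 ± 46.9 CPM to 156 ± 19.9 CPM (SD, n = 3 each; fold change -0.90, SE 0.18, edgeR adjusted p = 0.00208). *Frs2*, the docking protein of FGF receptors, had a fold change of 1.69 (SE 0.32, edgeR adjusted p = 0.00176), and *Pik3r1*, the regulatory subunit of PI3K, one of 1.66 (SE 0.31, edgeR adjusted p = 0.00155).

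The 15 other genes of the list of STAT3 targets did not move one way. Of these, 8 were higher (beside 31.7% of all genes tested) and 6 lower (beside 29.7%), and *Gbx2* did not pass the test (fold change -0.75, SE 0.40, edgeR adjusted p = 0.133) unless S06 was left out (-1.29, edgeR adjusted p = 0.0126). *Tfcp2l1*, the transcription factor through which LIF and STAT3 act on self-renewal in mESCs, had 1506, 1551 and 1235 CPM in mESCs, against 2.88, 8.61 and 14.9 CPM in CPCCs, a fold change of -7.35 (SE 0.54, edgeR adjusted p = 8.46e-06), and of -7.98 without S06. *Klf5*, another factor of naive pluripotency, fell from 281 ± 30.4 CPM to 24.7 ± 9.77 CPM (SD, n = 3 each; fold change -3.51, SE 0.30, edgeR adjusted p = 2.05e-05). *Klf4*, named after its values were seen, fell from 396 ± 15.9 CPM to 51.7 ± 19.9 CPM (SD, n = 3 each; fold change -2.94, SE 0.27, edgeR adjusted p = 2.56e-05), with S04 the highest CPCC library and not the lowest as for *Tfcp2l1* and *Klf5*. *Fos*, an immediate-early gene that also responds to many growth factors, rose from 4.79, 1.77 and 5.56 CPM to 47.8, 66.1 and 48.8 CPM, a fold change of 3.74 (SE 0.38, edgeR adjusted p = 5.05e-05). The other immediate-early genes of the list, *Junb* (fold change 3.47, SE 0.35) and *Myc* (3.25, SE 0.57), named after their values were seen, also passed the test in that direction (edgeR adjusted p = 5.08e-05 and 0.00111). The others, also named after their values were seen, were *Bcl3*, *Pim3* and *Mcl1* among the lower genes and *Pim2*, *Cebpb*, *Cebpd*, *Bcl2l1* and *Ccnd1* among the higher ones. The calls on *Mcl1* and *Ccnd1* each held in 4 of the 6 fits that left out 1 library.

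**Figure D5:**
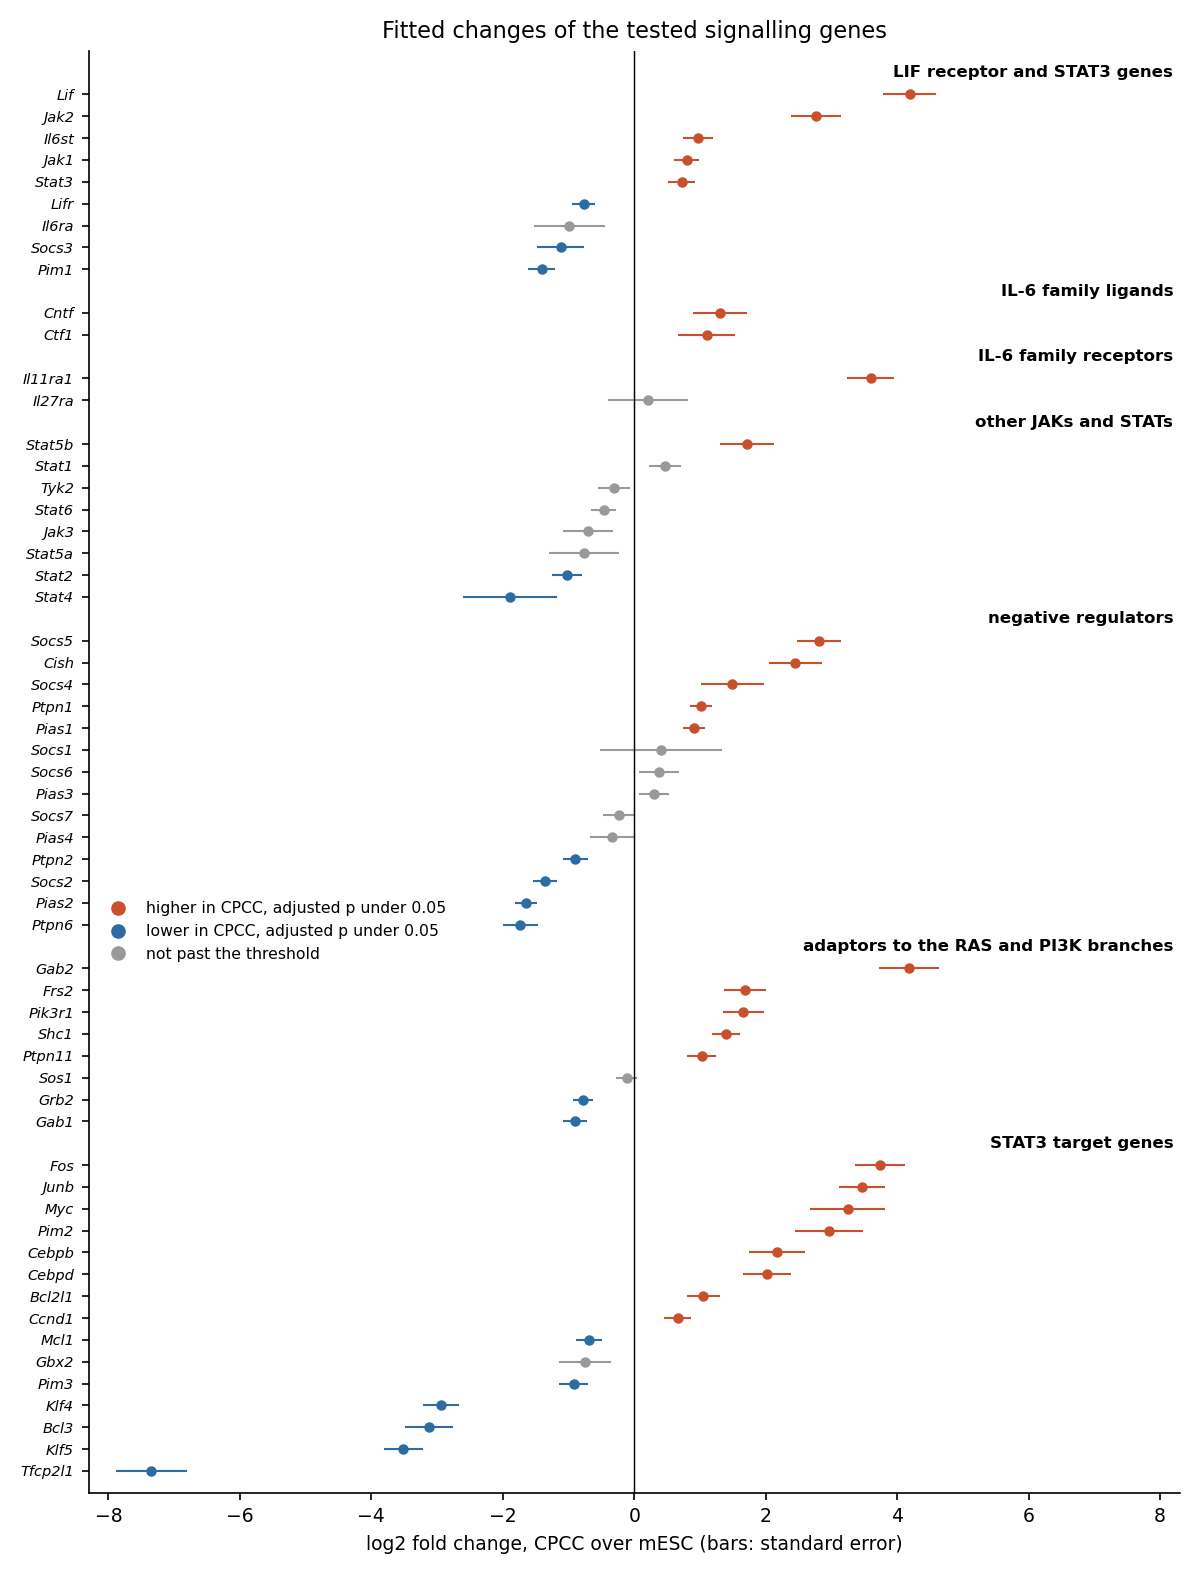
Log2 fold change of CPCCs over mESCs with its standard error for the genes tested and reported here, grouped by role, in red where higher, in blue where lower and in grey where not past an adjusted p of 0.05. Among the 9 genes of the LIF receptor and STAT3 set, values run from 4.19 for *Lif* to -1.41 for *Pim1*, and the STAT3 targets spread from 3.74 for *Fos* to -7.35 for *Tfcp2l1*.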

How the data were processed

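The authors made polyA-selected cDNA libraries (SMART-Seq v4, Nextera XT) and deposited their estimated counts by gene without normalization, in 1 table for mESCs and 1 for CPCCs. The submitters' processing notes name STAR 2.7 and mm10. The counter and its strand setting are not given in the sources used here. Between 17.9% and 21.5% of a library's values are not whole (no tolerance). Among the 10 genes this holds for *Jak1*, *Stat3* and, in 1 library and by 0.006 counts, *Jak2*. Each table leaves out genes under 10 counts in all. The cell type of a table was read from its name and the labels.

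After rounding to whole numbers, of 13001 genes in both tables edgeR's filterByExpr removed 530, and none of the 9 genes tested. Cell types were compared by the quasi-likelihood test of edgeR 4.0.16 in R 4.3.3 with TMM and Benjamini-Hochberg adjustment over 12471 genes. The SE is the size of the log2 fold change over the square root of F. Alternatives were upper-quartile scaling, DESeq2 1.42.0 (own size factors), library totals, whole-table library sizes, other filters, missing genes at 0 or 3 counts, shares without length, and leaving out each library. Merged exon length was added after the data were seen. Floors are 3 counts per library and cover counting error only. Lengths are from GENCODE vM21 and promoters from RefSeq (GRCm38.p6). Figures used matplotlib 3.10.9 in Python 3.11.15.

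The 10 genes and all lists were chosen with earlier results of these data known. Named are the 10 genes and, per pathway list, the 3 called genes with the largest change and up to 3 listed in 1 table alone with the highest mean. For 4 of the 10, the 3 nearest profiles are named. Others are said to be named after their values were seen. 1 gene that the rule names is not reported here, though the counts include it. On simulated counts for 13001 genes with 200 changed, edgeR recovered 148 (112 of the 121 with a change of 4-fold or more) with 3 false calls, and DESeq2 recovered 150 with 11 false calls.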

Additional observations from a re-analysis of the deposited data

How the results depend on the processing

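No paired analysis was possible because replicate numbers are not given for the columns, and a CPCC library could not be matched to the mESC library of its clone. The numbers of called genes (8 of the 10 genes, 37 of the pathway genes, 7656 of all), the median and the shares of *Jak2* and *Pim1* kept their direction under every alternative run and moved less than 1.5 times or 1 SD (0.26 for the median), with 1 exception. With at least 10 counts required in every library, the median fold change of the 10 genes was 0.04 in place of 0.72, because fewer of them were tested there, *Lif* being dropped. Leaving out each library in turn gave 7 to 8 called genes of the 10, 32 to 36 of the pathway, 6536 to 7895 of all, and a median of 0.58 to 0.89. The difference in the share of *Jak2* ranged from 7.88 to 10.3 percentage points and that of *Pim1* from -29.3 to -23.6. Of the values of single genes among the 10, 122 kept their direction and their side of the threshold and 3 lost the call, *Stat3* without S01 and *Socs3* without S02 or S03. Set to 3 counts in mESCs, *Osmr* had an edgeR adjusted p of 9.36e-06, and set to 0 counts one of 2.84e-05. Counts were low for *Lif* in mESCs (5 to 14 counts) and for *Il6ra* (15 to 89 counts), and the part of depth in their spread was not tested.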

Other observations

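Genes beside the ligand and receptor pairs were read within 200 kb. Next to *Osmr* lies *Rictor* (chromosome 15, 6708381 to 6800401), which encodes the defining subunit of mTOR complex 2. It had 37.2, 26.8 and 32.5 CPM in mESCs, against 281, 209 and 158 CPM in CPCCs, with a fold change of 2.75 (SE 0.25, edgeR adjusted p = 2.68e-05). *Fyb*, an adaptor of blood cells, and *Egflam*, a matrix protein that begins beyond *Lifr*, were listed for CPCCs alone, at 16.3, 3.40 and 1.95 CPM and at 4.08, 7.88 and 5.16 CPM. *Lifr* was thus the only one of the 5 genes listed in that window that was lower in CPCCs. Of the 8 other genes tested around *Osm* and *Lif*, 2 were higher, 4 lower and 2 not called, beside 31.7% higher and 29.7% lower of all genes tested. *Rnf215*, with a fold change of 1.85 (SE 0.27, edgeR adjusted p = 0.000356), and *Ccdc157*, with one of 1.37 (SE 0.32, edgeR adjusted p = 0.00472), rose. *Mtfp1* (-2.70) and *Gatsl3* (-0.92) were lower. *Hormad2*, a meiosis gene, fell from 13.6, 8.24 and 11.7 CPM to 1.59, 1.94 and 1.03 CPM (fold change -2.87, SE 0.43, edgeR adjusted p = 0.000436), and *Sf3a1*, a splicing factor, had a fold change of -1.34 (SE 0.17, edgeR adjusted p = 0.000197).

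*Stat3* lies beside *Stat5a* and *Stat5b* on chromosome 11. On its other side is *Cavin1* (100956736 to 100970618, minus strand), which encodes a coat protein of caveolae. Its level was 1.85, 1.62 and 4.39 CPM in mESCs, against 295, 198 and 142 CPM in CPCCs, a fold change of 6.32 (SE 0.44, edgeR adjusted p = 6.5e-06; 6.92 without S03), where *Stat3* had 0.72. Apart from *Stat3*, 16 genes were tested within 200 kb of these STAT genes. Of the 16, 4 were higher, 4 lower and 8 not called, beside 31.7% higher and 29.7% lower of all genes tested. These genes were chosen by position, and why neighbours differ was not tested.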
